A study of Mus musculus with 4 samples.

Results

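The interferon-inducible GTPases are 2 related families of mouse defence genes, the guanylate-binding proteins (Gbp genes) and the immunity-related GTPases (Irg genes). The genes chosen were Gbp2, Gbp2b, Gbp3 and Gbp7 of the first family, and Iigp1, Irgm1, Irgm2, Igtp, Ifi47 and Tgtp1 of the second, and every probe set annotated to 1 of these genes alone was taken. This gave 12 probe sets for 9 of the 10 genes, out of 34945 such probe sets for 18193 genes. Tgtp1 had no probe set of its own, because its probe set is annotated to another gene as well. All 9 measured genes reached log2 6, the floor used for comparisons, on at least 1 array, and 8 of them did so on all 4 arrays, the exception being Iigp1.

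The cells were mouse bone marrow cultured for 5 days with M-CSF, the growth factor of macrophages, from animals labelled wild type or Jmjd3-/- (the knockout). Cells of both genotypes were left unstimulated or given 100 ng/ml of lipopolysaccharide (LPS) for 4 h, LPS being the bacterial cell wall component sensed by Toll-like receptor 4, and each of the 4 groups had 1 Affymetrix array of total RNA. Kdm6b encodes Jmjd3, an enzyme that removes the repressive methyl mark from lysine 27 of histone H3. The sources used here do not give the part deleted, the strain, the age or the number of animals. With 1 array a group, a difference between 2 arrays has no replicate check.

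As background, these GTPases are made in large amounts when cells sense interferons. Macrophages exposed to LPS release interferon beta, which acts back on the same cells, while interferon gamma comes mainly from lymphocytes and induces the factor Irf1. The Irg proteins Iigp1 and Tgtp1 are effectors that load onto the vacuoles of intracellular parasites and bacteria, whereas Irgm1, Irgm2 and Igtp sit on the cell's own membranes and hold the effectors in check. Gbp proteins gather on pathogen vacuoles and on free bacteria, and help to expose lipopolysaccharide to the inflammasome caspase encoded by Casp4.

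The promoters are shown first, since they carry the letters that interferon factors read. RefSeq promoter windows (assembly GRCm38.p6, 250 bases before to 50 bases after the transcript start) were found for 9 of the 10 genes, all but Iigp1. The core of the interferon-stimulated response element, searched as GAAA, any 2 bases and GAAA on both strands, was present in 8 of these 9 genes, Ifi47 being the exception. Of all 27025 genes with such windows 3.99% held it. The stretches around it follow, each 5′ to 3′ on the strand of the gene, with up to 25 bases on either side and ending no later than the transcript start. Capitals mark the core, which reads as TTTC, 2 bases and TTTC where it lies on the opposite strand (the 4 Gbp genes), and any gamma-activated site (TTC, any 3 bases and GAA) in the stretch.

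Gbp2, chr3:142620579-142620638, plus strand: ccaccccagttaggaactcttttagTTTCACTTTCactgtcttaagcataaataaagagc
Gbp2b, chr3:142594685-142594744, plus strand: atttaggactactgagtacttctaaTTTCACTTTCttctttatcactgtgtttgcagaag
Gbp3, chr3:142559974-142560039, plus strand: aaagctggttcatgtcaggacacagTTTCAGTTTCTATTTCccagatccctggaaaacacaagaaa
Gbp7, chr3:142530258-142530317, plus strand: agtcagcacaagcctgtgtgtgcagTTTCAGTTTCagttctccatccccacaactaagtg
Irgm1, chr11:48871421-48871475, minus strand: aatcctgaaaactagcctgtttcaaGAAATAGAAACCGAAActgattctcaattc
Irgm2, chr11:58214888-58214947, plus strand: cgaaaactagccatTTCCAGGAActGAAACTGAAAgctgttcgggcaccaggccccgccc
Igtp, chr11:58199497-58199555, plus strand: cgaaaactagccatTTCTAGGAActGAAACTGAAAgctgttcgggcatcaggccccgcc
Tgtp1, chr11:48992289-48992348, minus strand: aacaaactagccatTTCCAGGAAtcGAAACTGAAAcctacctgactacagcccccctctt

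The cores began between 24 and 137 bases before the start, with a copy in Irgm1 nearest and that of Gbp2b farthest. Gbp3 and Irgm1 each held 2 overlapping copies. Igtp, Irgm2 and Tgtp1 shared an arrangement in which a gamma-activated site lay just before the core, and the 250 upstream bases of Igtp and Irgm2 were 90.2% identical over 215 aligned bases. Gbp7 also held the gamma-activated site, beginning 106 and 87 bases before the start, so that 4 of the 9 genes had it, against 9.55% of all genes. The NF-kB consensus site was found in 0 of the 9 genes and in 5.14% of all genes, so its absence does not set them apart. A match of letters is a description, not a measured binding site.

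**Figure D1:**
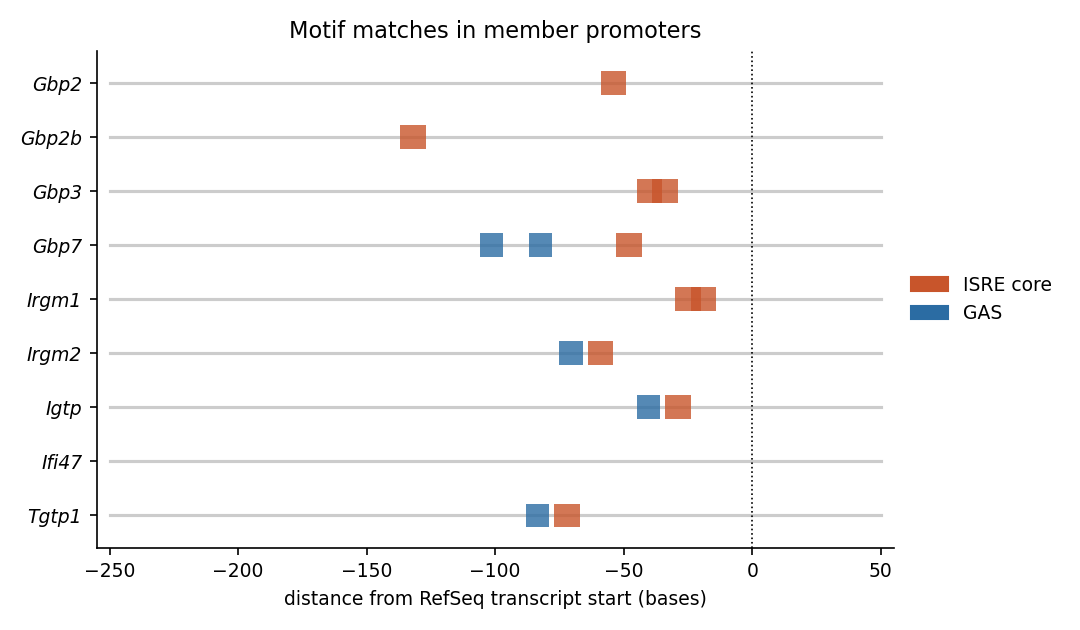
Motif matches in the RefSeq promoter windows of 9 member genes, placed by distance in bases from the transcript start (dotted line), for the core of the interferon-stimulated response element (orange) and the gamma-activated site (blue); of the 2 windows of Gbp3 the one with a match is drawn. The core is present in 8 of 9 windows, and only Ifi47 shows no match to either motif.

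Macrophage markers were present on all 4 arrays: 8 of 8 lay above the floor on each, and their summed linear intensity lay between 38133 and 41510. Single markers differed more than the sum. For genotype 1 rose, 1 fell and 6 did not pass, beside 6.39% and 3.12% of all genes that rose and fell. Fcgr1 read 10.88 and 11.84 in wild type and 11.51 and 12.71 in the knockout, without and with LPS. Itgam read 7.68 and 7.87 against 6.64 and 6.84. The array medians lay between 4.15 and 4.24. Kdm6b, the targeted gene, read 10.33 and 11.23 in unstimulated and LPS-treated wild-type cells and 9.82 and 10.82 in the knockout on its brightest probe set. That probe set is of a class that can cross-hybridise. Another read 4.71 and 5.22 against 5.35 and 6.07, higher in the knockout but near or under the floor, and a further one lay under the floor throughout. Since the deleted part is not known here, these readings do not settle the labels. Kdm6b lies on chromosome 11, as do Irgm1, Irgm2, Igtp, Ifi47 and Tgtp1. The part of this shared chromosome in the results was not tested. Markers of other cells also differed between the genotypes, and the part of any cell marker in the results on the GTPases was not tested. Granulocyte and precursor markers (11 measured) summed to 3468 and 4769 on the wild-type arrays and to 38035 and 38248 on the knockout arrays, although 1 of them, Mmp8, was lower in the knockout (11.14 and 10.55 in wild type, 8.71 and 7.14 in the knockout). Stromal markers (10 measured) summed to 507 and 624 against 23088 and 18110. The T, B and NK cell list went the other way: 4 of 8 measured markers, Cd3e, Cd3g, Cd3d and Ifng, lay above the floor on both wild-type arrays and 0 on the knockout arrays, with sums of 422 and 739 against 92.8 and 133. Dendritic cell markers (7 measured) summed to 4390 and 6138 in wild type and 1035 and 1239 in the knockout, mostly from Itgax and Ccr7, while Flt3, Siglech, Xcr1 and Cd209a lay under the floor throughout.

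In unstimulated cells the GTPase genes were already well expressed in wild type and far lower in the knockout. All 9 measured genes were 2-fold or more lower in the knockout, by a median of 2.15 on the log2 scale, or 4.43-fold, with a range from 3.18-fold for Ifi47 to 23.3-fold for Iigp1, whose knockout reading lay under the floor. Of all 9045 genes in this comparison 5.74% were 2-fold or more lower and 9.54% higher, and the median of all genes was 0.07. The 12 probe sets gave the same picture, with 12 of 12 lower by 2-fold or more. In bulk cultures, fewer cells of a type and less RNA per cell cannot be told apart.

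With LPS the genotypes lay close together. None of the 9 genes differed 2-fold between the genotypes, in either direction, and the differences ran from -0.28 to 0.72 with a median of 0.11, against 0.04 for all genes. The background shares here were 9.76% higher and 5.65% lower by 2-fold or more, so most genes lay within 2-fold, as the members did. Being 2-fold or more lower in the unstimulated knockout and less than 2-fold apart with LPS was shared by 9 of 9 members and by 3.06% of 9385 genes. On each member the arrays kept 1 order, from the unstimulated knockout through unstimulated wild type to the LPS arrays of both genotypes, an order that 11.2% of all genes showed. The sign of the genotype difference was opposite without and with LPS in 7 of 9 members, all but Gbp2 and Gbp3, and in 30.6% of all genes. These joint patterns were defined after the values were seen.

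**Figure D2:**
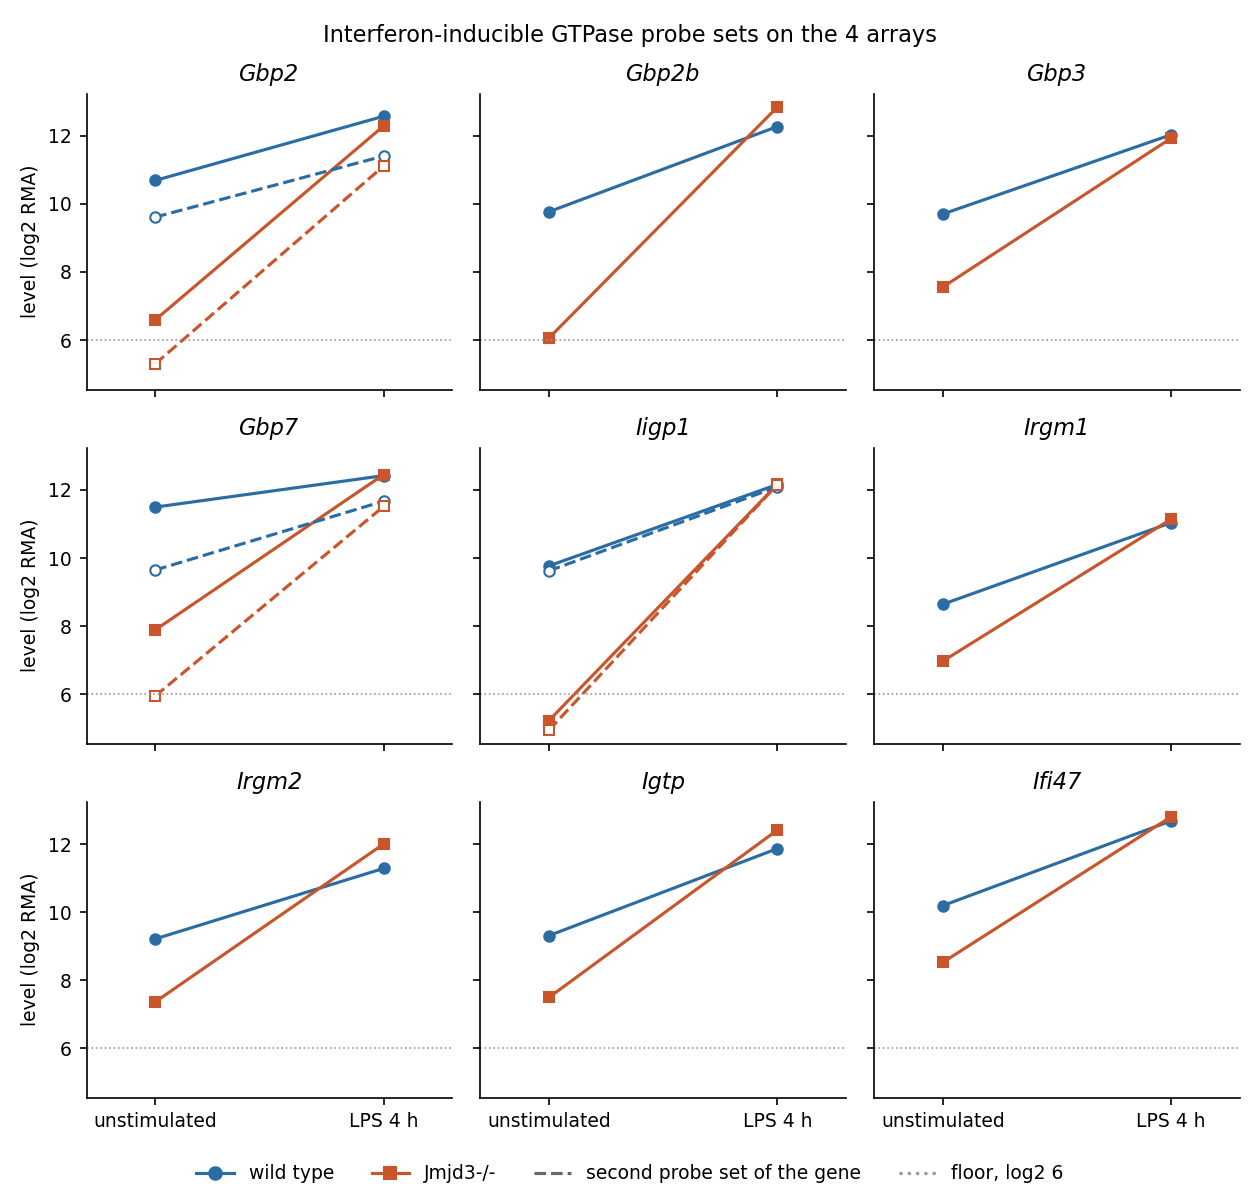
Level of each member's probe sets (log2 RMA, vertical axis) without and with LPS in wild type (blue circles) and Jmjd3-/- cells (orange squares), 1 array per point; dashed lines with open symbols are the second probe set of a gene and the dotted line is the floor of log2 6. In every panel the knockout starts below wild type and both meet within 2-fold after LPS.

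Among the guanylate-binding proteins, Gbp2 showed the widest gap without LPS. It read 10.69 in unstimulated wild-type cells, 12.58 in wild type with LPS, 6.59 in the unstimulated knockout and 12.29 in the knockout with LPS. The unstimulated knockout array thus stood alone at the low end, 17.1-fold below wild type, while the LPS arrays lay 0.28 apart. The knockout value lies near the floor, and with 64 added to the linear intensities the log2 gap of -4.10 became -3.42. Its second probe set, of a class that can cross-hybridise, read 9.61, 11.41, 5.30 and 11.11 in the same order, a gap of 4.31 without and 0.29 with LPS.

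Gbp2b, listed in older annotations as Gbp1, ended higher in the knockout than in wild type. Its levels were 9.77 and 12.28 in wild type and 6.06 and 12.85 in the knockout, without and with LPS. The knockout value without LPS lay just above the floor, so that the 111-fold LPS difference in the knockout starts near background; with 64 added the log2 gap without LPS of -3.71 became -2.84. In wild type the same difference was 5.68-fold.

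Gbp7 had the smallest LPS difference in wild type of the members on its brighter probe set, but not on its dimmer one. Its brighter probe set read 11.50 and 12.42 in wild type and 7.89 and 12.45 in the knockout, and its dimmer one 9.65 and 11.67 against 5.94 and 11.52. The probe sets differed on the wild-type LPS difference, 0.93 on the brighter and 2.02 on the dimmer, and so on whether it reached 2-fold. They were alike on the genotype gap without LPS, at -3.61 and -3.70.

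Gbp3 had the smallest gap of its family. It read 9.70 and 12.04 in wild type and 7.55 and 11.93 in the knockout, without and with LPS. The unstimulated knockout was 4.43-fold lower than wild type, and the LPS arrays lay 0.10 apart.

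In the Irg family the effector gene Iigp1 had a wide gap without LPS. It read 9.77 and 12.16 in wild type and 5.22 and 12.17 in the knockout, so that the unstimulated knockout lay under the floor and the LPS arrays were level. Its second probe set read 9.62, 12.09, 4.94 and 12.16 in the same order. The fold of 23.3 between the unstimulated arrays rests on a background reading in the knockout, and with 64 added to the linear intensities the log2 gap of -4.55 became -3.21, smaller than those of Gbp2 (-3.42) and Gbp7 (-3.30) on the same scale.

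The regulators that guard the cell's own membranes showed smaller gaps without LPS than the Gbp genes and Iigp1, and so did Ifi47. With LPS the knockout lay above wild type by more than 0.5 for Irgm2 and Igtp, as it did for Gbp2b (0.57). Irgm1, which also supports autophagy and the survival of infected macrophages, read 8.64 and 11.04 in wild type and 6.97 and 11.15 in the knockout. Irgm2 read 9.21 and 11.28 against 7.36 and 12.002. Igtp, also called Irgm3, read 9.31 and 11.87 against 7.49 and 12.41. The unstimulated knockout was thus lower by 3.19-fold to 3.61-fold across these 3 genes, and with LPS it was higher by 1.08-fold for Irgm1, 1.65-fold for Irgm2 and 1.46-fold for Igtp.

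Ifi47, a further Irg gene and the one whose promoter window held neither motif, had the same order of arrays as the others. Its levels were 10.19 and 12.68 in wild type and 8.52 and 12.80 in the knockout, a gap of 3.18-fold without LPS and of 0.12 on the log2 scale with it.

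Among probe sets of 1 gene the unstimulated genotype difference had a median SD of 0.20, a measure of technical spread only.

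**Figure D3:**
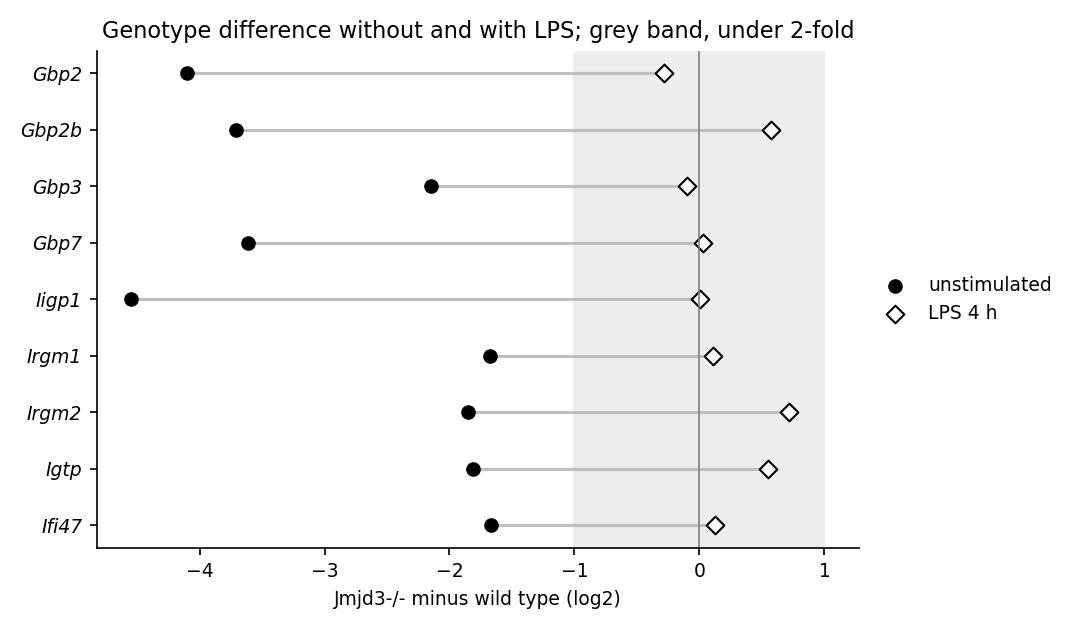
Difference between Jmjd3-/- and wild type (log2, horizontal axis) for the brightest probe set of each member, without LPS (filled circles) and with LPS (open diamonds), from single arrays; the grey band marks less than 2-fold. The circles lie between -4.55 and -1.67 and the diamonds between -0.28 and 0.72.

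The family was higher with LPS in both genotypes. In the limma fit of all 4 arrays, 8 of 9 members rose with LPS and none fell, against 11.2% of 9385 genes that rose and 18.8% that fell. All 9 had an unadjusted p below 0.05, as did 45.0% of all genes. The median shared effect was 3.39, against -0.22 for all genes. Ifi47 rose by 3.39 (SE 0.43; limma with Benjamini-Hochberg correction, adjusted p = 0.00979, both genotypes higher). Iigp1 rose by 4.67 (SE 1.05; limma with Benjamini-Hochberg correction, adjusted p = 0.0325, both genotypes higher). The brightest probe set of Gbp7, at 2.75, missed the threshold (limma with Benjamini-Hochberg correction, adjusted p = 0.0663), while its dimmer one, in a fit of all probe sets, rose by 3.80 (limma with Benjamini-Hochberg correction, adjusted p = 0.0237). Standard errors ran from 0.43 for Ifi47 to 1.05 for Iigp1, since the only residual degree of freedom is the difference between the LPS responses and these genes differed there. Without the intensity trend 5 members passed, Gbp2, Gbp2b and Iigp1 no longer doing so, and without the genotype term 0 passed.

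The LPS difference was larger in the knockout for every measured member. In wild type 8 of 9 genes were 2-fold or more higher with LPS (9.86% of all genes were, and 14.3% were lower), with a median of 2.39, or 5.26-fold, and this comparison uses no knockout array. In the knockout 9 of 9 were (11.0% of all genes, and 15.5% were lower), with a median of 4.64, or 24.98-fold, and a lowest value of 18.1-fold for Irgm1. The highest, 123-fold for Iigp1, was taken over a reading under the floor, and with 64 added its log2 difference was 5.53, below the 5.83 of Gbp2b. The knockout response exceeded that of wild type by 2-fold or more in 9 of 9 members (5.19% of all genes, with 4.73% the other way), by a median of 2.57 on the log2 scale and from 1.78 for Irgm1 to 4.55 for Iigp1. With 64 added Iigp1 stood at 3.21, below Gbp2b (3.41) and Gbp7 (3.33). Both responses were 2-fold or more and the knockout response 2-fold larger in 8 of 9 members and in 1.37% of all genes. Since the LPS arrays differed little, this is the unstimulated gap seen from the other side, on the same 4 arrays, and it has no test.

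**Figure D4:**
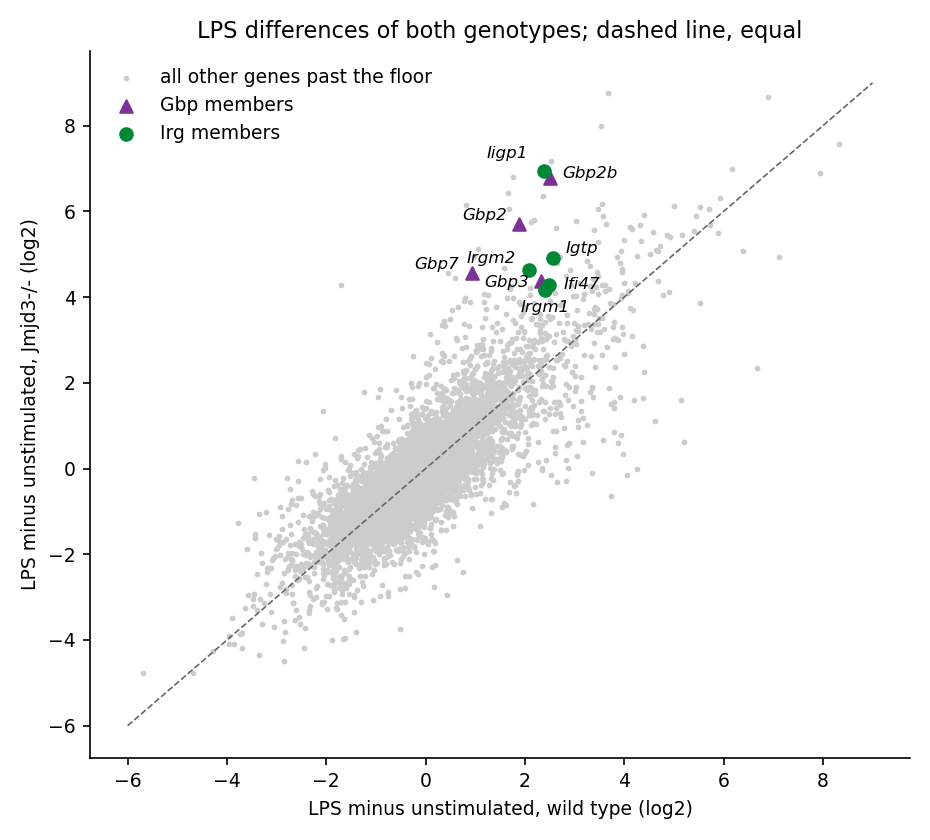
LPS minus unstimulated difference in Jmjd3-/- cells (vertical axis, log2) against that in wild type (horizontal axis, log2) for 9385 genes past the floor (grey), with the 4 Gbp members (purple triangles) and 5 Irg members (green circles); the dashed line marks equal differences. All 9 members lie above the line, by 1.78 to 4.55.

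The genotype effect shared by both states did not pass for any member. In the limma fit 0 of 9 rose or fell, and 0 of 9 had an unadjusted p below 0.05 (24.4% of all genes did), against 6.39% of genes that rose and 3.12% that fell. Estimates lay between -2.27 for Iigp1 and -0.57 for Irgm2, with a median of -1.12. The Gbp2 estimate was -2.19 (SE 0.88; limma with Benjamini-Hochberg correction, adjusted p = 0.220, both states lower). An average over both states does not describe genes with a gap in 1 state alone, and a p that misses the threshold does not show that the genotypes were alike.

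Other genes of the families, from a list of 17, had 6 measured and 5 past the floor. Of these Gbp6 (4.37), Gm4951 (3.99) and Gm12185 (2.99) rose with LPS, beside 11.2% of all genes. The rest did not pass, and none passed for genotype. Gbp6 read 9.43 and 11.80 in wild type and 5.05 and 11.41 in the knockout, and Gm4951, which like Iigp1 lies on chromosome 18, read 9.43 and 11.62 against 5.73 and 11.51. Both had the members' order of arrays, and both lay under the floor in the unstimulated knockout, so their gaps rest on background readings. Gm12185 read 4.75 and 7.24 against 4.53 and 8.01, under the floor without LPS in both genotypes, so that its order there carries no weight. The order was broken by Gbp8 and Irgq, both named after their values were seen. Gbp8 read 9.61 and 9.70 in wild type and 5.30 and 8.44 in the knockout, under the floor in the unstimulated knockout. Its gap was smaller with LPS, at -1.25 against -4.31 without it, but stayed above 2-fold. Irgq read 7.13 and 6.76 in wild type and 7.66 and 7.24 in the knockout, higher in the knockout in both states.

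The interferon beta gene was alike in both genotypes with LPS, while the interferon gamma gene was lower in the knockout in both states. The part of either gene in the results on the GTPases was not tested. Ifnb1, the interferon beta gene, read 3.76 and 8.44 in wild type and 3.54 and 8.63 in the knockout, without and with LPS, and rose by 4.88 (SE 0.27; limma with Benjamini-Hochberg correction, adjusted p = 0.00238, both genotypes higher). Without LPS it lay under the floor in both genotypes, so its genotype difference in that state compares background readings. Ifng, the interferon gamma gene, read 6.34 and 8.20 in wild type against 3.11 and 4.72 in the knockout, under the floor on both knockout arrays. It fell by 3.35 with genotype (limma with Benjamini-Hochberg correction, adjusted p = 0.00624, both states lower), and is also 1 of the T, B and NK markers given above, where Cd3e, Cd3g and Cd3d fell as well.

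Of 20 interferon ligand, receptor and signalling genes past the floor, 12 rose with LPS and none fell, beside 11.2% and 18.8% of all genes. Ifnb1 led, followed by Irf7 (3.15), a factor of the type I interferon loop, and Stat2 (3.02). Irf1, the factor that binds after interferon gamma, rose by 1.87, and Irf8, a macrophage factor of the same family, by 1.38. Irf1 had the members' order of arrays with a smaller gap: 10.56 and 11.57 in wild type, 8.91 and 11.63 in the knockout. That order was also held by Ifnar2, Jak2, Stat2, Irf9, Irf2, Tbk1 and Ikbke, with gaps under 2-fold without LPS. Ifnb1 held it too, from readings under the floor without LPS. Stat2 read 7.72 and 10.19 in wild type and 6.87 and 10.43 in the knockout, and Irf8 9.46 and 10.68 against 9.92 and 11.47, higher in the knockout in both states. For genotype Ifng and Tlr4 fell, Tlr4 by 1.42, and the other 18 did not pass, beside 3.12% of all genes that fell. Tlr4 encodes the LPS receptor and read 10.61 and 10.15 in wild type and 9.24 and 8.69 in the knockout.

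Among brakes of interferon signalling 3 of 7 genes rose with LPS, beside 11.2% of all genes, and none passed for genotype. Usp18 rose by 5.15, Socs3 by 3.67 and Ptpn2 by 0.74. Socs3, an inhibitor of cytokine receptor signalling, read 9.39 and 12.22 in wild type and 7.46 and 11.96 in the knockout, a profile close to that of the members. Its probe set is of a class that can cross-hybridise. Usp18, which limits the type I interferon receptor, read 7.73 and 12.59 against 7.49 and 12.94, with no such gap.

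**Figure D5:**
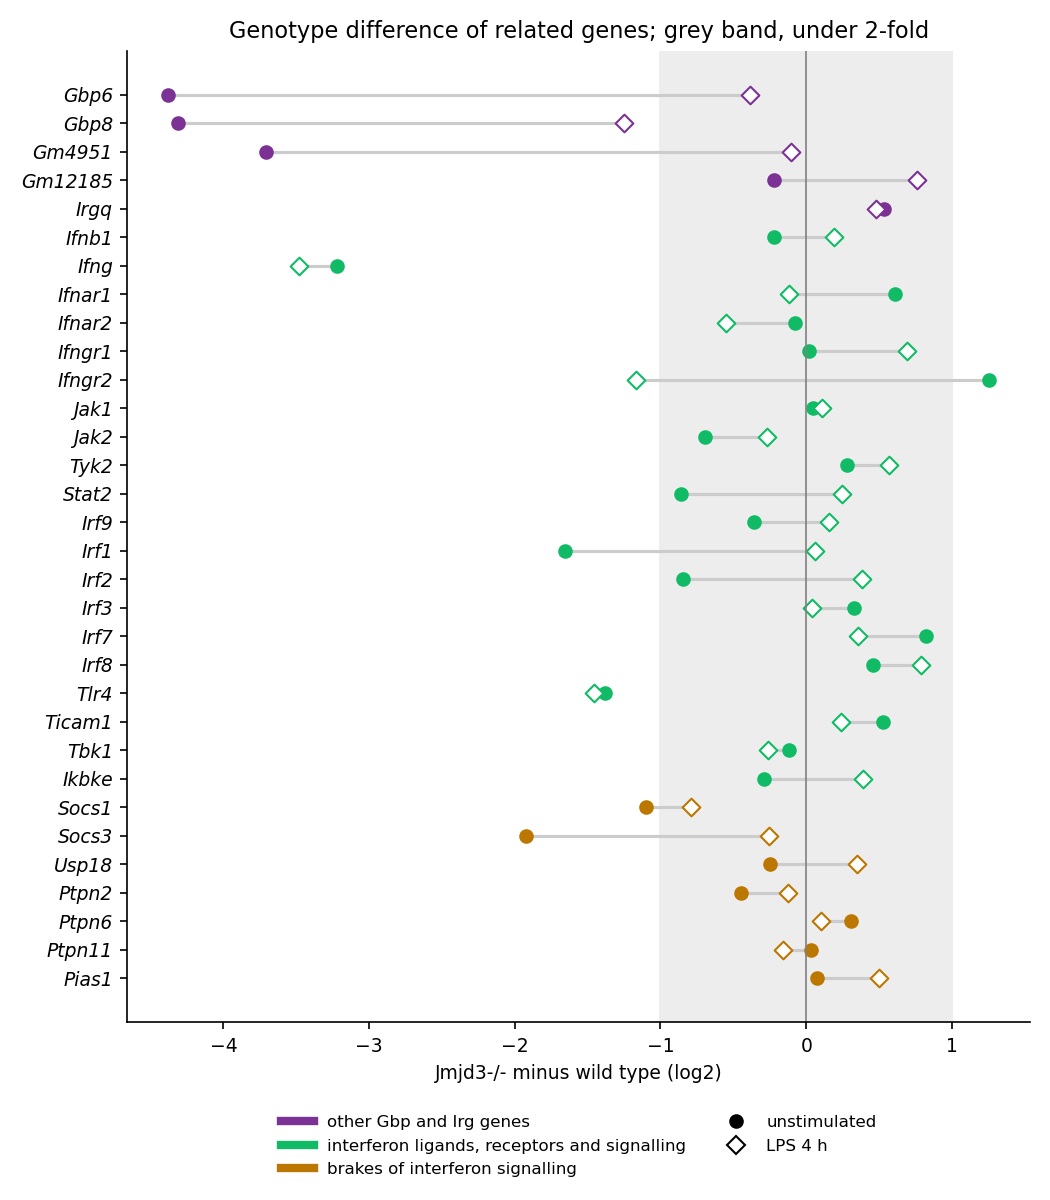
Difference between Jmjd3-/- and wild type (log2, horizontal axis) without LPS (filled circles) and with LPS (open diamonds) for other Gbp and Irg genes (purple), interferon ligands, receptors and signalling genes (green) and brakes of interferon signalling (brown), from single arrays; the grey band marks less than 2-fold. Gbp6, Gbp8 and Gm4951 lie at -4.38, -4.31 and -3.71 without LPS, each with a knockout reading under the floor. Ifng lies below -3 in both states, with knockout readings under the floor. Ifnb1 lies within the band in both, with readings under the floor in both genotypes without LPS.

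Of 12 conjugation genes that direct the GTPases onto vacuoles, 3 rose with LPS, 3 fell and 6 did not pass, beside 11.2% and 18.8% of all genes that rose and fell, and none passed for genotype. Trim21, a ubiquitin ligase, rose by 2.44, Atg16l1 by 0.85 and the autophagy receptor gene Sqstm1 by 0.62. Atg7, the enzyme that activates the ubiquitin-like proteins, fell by 1.78, Gabarapl1 by 1.27 and Atg12 by 0.82. Of 8 inflammasome genes 7 rose with LPS and none passed for genotype. Il1b rose by 4.86, Casp4 by 3.49 and Nlrp3 by 2.31. Casp4 read 8.08 and 11.05 in wild type and 6.37 and 10.39 in the knockout. Il1b read 10.09 and 13.63 against 6.72 and 12.91, a gap of -3.36 without LPS and -0.72 with it. Both genes had the members' order of arrays.

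Genes whose pattern was most like the members' were ranked by the root mean square distance, over the 4 arrays, between each gene's centred log2 values and the members' median centred profile. The 5 nearest were Cd86 (0.18), a costimulatory ligand, Zbp1 (0.21), a sensor of nucleic acids, Ubd (0.21), a ubiquitin-like protein, Socs3 (0.21) and Batf2 (0.22), a transcription factor. Cd86 read 9.53 and 11.62 in wild type and 7.61 and 11.65 in the knockout, and Zbp1 8.99 and 11.29 against 7.35 and 11.49. Without LPS Ubd lay under the floor in both genotypes, at 5.75 in wild type and 3.40 in the knockout. Batf2 lay under it in the unstimulated knockout, at 4.79. The likeness of Ubd and Batf2 without LPS thus rests on background readings, and that of Socs3 on a probe set that can cross-hybridise. Among the members themselves this distance ran from 0.08 for Gbp3 to 1.06 for Iigp1. With 4 points from 4 arrays, the ranking describes these arrays alone.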

How the data were processed

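The authors deposited 1 table of log2 probe set intensities from 4 arrays, made with RMA, per the submitters' processing notes; the sources used here give no version or background model. After removal of Affymetrix controls 45037 probe sets remained, of which 34945 named 1 gene, 932 several and 9160 none. Gene identifiers of 34741 matched RefSeq (GRCm38.p6). Where a gene had several probe sets, the brightest on average stood for it. Differences between arrays count genes at log2 6 or more on the higher array, and 2-fold was the threshold. The shared LPS and genotype effects came from an additive fit of 9385 genes (limma 3.58.1, R 4.3.3) with an intensity trend, 1 residual and 3.84 prior degrees of freedom, and a threshold of 0.05 on the Benjamini-Hochberg adjusted p; "rose" and "fell" are kept for these. The p-values rest on the difference between the LPS responses, the only residual, combined with a prior from all genes. They measure no spread between replicates or animals, and nothing says the samples came from separate animals. The fit was tested on simulated data with additive effects alone. That test does not cover genes whose LPS responses differ between the genotypes, as those of the members did. Tables and motif searches used Python 3.11.15, pandas 2.3.3 and biopython 1.88. Named genes are the members, Kdm6b, Ifnb1, Irf1, Irf8 and the 5 nearest by profile. Up to 3 genes a direction from each list were added by size of a shared effect. Gbp8, Irgq, Mmp8, Fcgr1, Itgam, the Tlr4 and Il1b levels and the signalling genes named only for their order were chosen after values were seen. Members and lists were chosen with earlier results of these data known. The alternatives varied the floor, the probe set, a constant of 64, quantile scaling and the model. The number of arrays limits the precision.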

Additional observations from a re-analysis of the deposited data

Results flagged for a closer look

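For 7 of 9 members the knockout minus wild type difference changed sign between the states, low without LPS and higher with it, against 30.6% of all genes whose sign differed. With LPS it was 0.57 for Gbp2b, 0.031 for Gbp7, 0.0061 for Iigp1, 0.11 for Irgm1, 0.72 for Irgm2, 0.55 for Igtp and 0.12 for Ifi47. The change of sign was not tested, and those of Gbp7, Iigp1, Irgm1 and Ifi47 lie within 0.18, the median SD of this difference among probe sets of 1 gene. The second probe set of Gbp7 was lower in the knockout in both states, at -0.15 with LPS.

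Ifngr2, which encodes a chain of the interferon gamma receptor, had LPS differences of opposite sign in the genotypes. It read 8.77 and 9.86 in wild type and 10.02 and 8.69 in the knockout, a difference between the responses of -2.42 that was not tested.

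The probe set annotated to a member together with another gene, left out above, carried signal as well. It read 9.44 and 12.42 in wild type and 6.78 and 12.57 in the knockout, an LPS difference of 2.98 and 5.79.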

How the results depend on the processing

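Over 7 alternatives of floor, probe set, constant and scaling, the counts of members 2-fold apart in each of the 5 differences stayed within 1.5 times of those reported. For the count that rose with LPS, 5 passed without the intensity trend and 0 without the genotype term, which adds the genotype difference to the residual; the others gave 6 to 9. With 64 added the medians were 4.24 for LPS in the knockout, -1.83 for the unstimulated genotype difference and 2.23 for the difference between responses, since this shrinks low values. The mean of all probe sets gave 4.92 for LPS in the knockout. No member passed for genotype in any of the 10 alternative fits. No paired analysis was possible because each group has 1 array and the labels give no replicate numbers. Leaving out an array leaves the additive fit no residual degree of freedom, so no such test was run.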
